A study of Mus musculus with 12 samples.

Results

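A set of 10 genes, of the 31017 in each deposited count table, was nearly absent from knockout clone 1 of mouse 4T1 cells while knockout clone 2 and the control cells kept them. They are Rab25, Bspry, Rasef, Zfp518b, Fam111a, Rps6ka6, Acsl6, Tmem266, Casp12 and Dmd. They were chosen by their symbols, and the symbols had been picked from these same counts, so the low level in clone 1 and the retained level in clone 2 are the choice itself and carry no test here. All 10 had a line in both tables and all 10 passed the filter on low counts, which left 13763 genes to be tested.

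4T1 is a mouse mammary carcinoma cell line, and its polyadenylated RNA was sequenced in 12 libraries, 2 per group. Clone 1 and clone 2 are single clones with the transcription factor gene Etv4 targeted by sgRNA after nucleofection, and the control is a pool of clones that received control sgRNA. Each of them was grown in collagen I gels (3D), which a collagenase digestion dissolved ahead of RNA extraction, or on plastic (2D), where that step was absent. All groups went through nucleofection and clone picking, each knockout genotype is 1 clone, and which of the collagen concentrations a gel had is not given per library.

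Libraries held 26.5 to 33.2 M counts in 3D and 12.3 to 18.7 M in 2D. Etv4 itself, a PEA3-group ETS factor, was at 69.1 to 69.9 counts per M counted reads (CPM) in clone 1, 86.6 and 91.5 CPM in clone 2 and 94.7 and 99.4 CPM in control in 3D. On plastic it stood at 49.2 and 49.8 CPM in clone 1, 46.0 and 49.3 CPM in clone 2 and 76.0 and 78.1 CPM in control, and a small edit need not change its count. The epithelial markers Krt8, Krt18, Epcam and Cdh1 summed to 2204 to 2718 CPM in clone 1, 2542 to 3998 CPM in clone 2 and 2660 to 3287 CPM in control. Leukocyte markers summed to at most 0.405 CPM in any library, fibroblast markers to at most 0.0365 CPM and endothelial markers to at most 0.853 CPM. Itgam and Adgre1 among the leukocyte markers, and Lum, Pdgfrb and Col3a1 of the 4 fibroblast markers, had no count in any library. In such bulk RNA, fewer cells that express a gene and less RNA per cell cannot be told apart.

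The 10 genes belong to no common pathway. Rab25 is an epithelial GTPase of the Rab11 family that returns vesicles and their integrins to the cell surface, Rasef is a larger Rab-type GTPase with EF hands, and Bspry is a B-box and SPRY domain protein of epithelia. Rps6ka6 is a kinase of the RSK family downstream of ERK, Acsl6 activates long-chain fatty acids by joining them to coenzyme A, and Casp12 is a caspase of the inflammatory subgroup. Fam111a is a protease that acts in DNA replication and restricts viruses in human cells, Zfp518b is a zinc finger protein, Tmem266 is a membrane protein with a voltage-sensor domain, and Dmd encodes dystrophin, which ties the cytoskeleton to the extracellular matrix. A single clone descends from a single cell, while a pool mixes the descendants of several.

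The genes lie on 7 chromosomes in mm10 (GENCODE M21 annotation). Rab25 is at chr3:88542029-88548300 on the minus strand, Zfp518b at chr5:38668484-38684826 on the minus strand and Fam111a at chr19:12545740-12589768 on the plus strand. Chromosome 4 carries Bspry at chr4:62480053-62497298 (plus) and Rasef at chr4:73714579-73790994 (minus), and chromosome 11 carries Acsl6 at chr11:54303798-54364756 (plus). Casp12 at chr9:5345430-5373032 and Tmem266 at chr9:55326913-55438345 share chromosome 9 (both plus). Dmd at chrX:82948870-85206141 (plus) and Rps6ka6 at chrX:111388192-111537959 (minus) share the X chromosome. All are protein coding. Of the exon length of Fam111a, 14.35% is overlapped by genes on the opposite strand, and of that of Acsl6 2.04%, and the strand setting of the counting is not given in the sources used here. None of the other 8 has exon overlap with another gene in this annotation.

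To show the sequence in front of genes that were nearly absent together, the 250 bases upstream of the first RefSeq transcript start (GRCm38.p6) are given for an epithelial GTPase, an epithelial B-box gene, an EF-hand GTPase, the gene with the most control counts among those at 0 in clone 1 on plastic, and the caspase. Capitals mark CAGGTG, the E-box letters that Zeb and Snail factors bind. They also mark AGGAAG, a form of the letters that ETS factors bind, and its variant with C as the first base, CGGAAG. Matches on the opposite strand are in capitals too and read as the reverse complement. The windows are, each 5′ to 3′ on the gene's strand, chr3:88548280-88548529 (minus) for Rab25, chr4:62479812-62480061 (plus) for Bspry, chr4:73790603-73790852 (minus) for Rasef, chr19:12573260-12573509 (plus) for Fam111a and chr9:5345226-5345475 (plus) for Casp12. The Rasef and Fam111a windows lie wholly inside the GENCODE span of their gene given above. A match or CpG before Rasef or Fam111a is therefore before the RefSeq start and still within that span.
Rab25: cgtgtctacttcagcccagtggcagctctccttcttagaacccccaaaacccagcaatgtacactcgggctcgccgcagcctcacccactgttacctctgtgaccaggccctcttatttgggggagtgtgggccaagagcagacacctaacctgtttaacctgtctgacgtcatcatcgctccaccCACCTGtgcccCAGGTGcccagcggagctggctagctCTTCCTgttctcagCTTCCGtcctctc
Bspry: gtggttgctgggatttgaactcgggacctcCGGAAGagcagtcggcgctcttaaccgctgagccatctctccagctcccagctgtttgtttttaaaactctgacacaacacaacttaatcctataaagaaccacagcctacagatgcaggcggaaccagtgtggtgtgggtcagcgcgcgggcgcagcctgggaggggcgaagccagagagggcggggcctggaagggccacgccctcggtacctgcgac
Rasef: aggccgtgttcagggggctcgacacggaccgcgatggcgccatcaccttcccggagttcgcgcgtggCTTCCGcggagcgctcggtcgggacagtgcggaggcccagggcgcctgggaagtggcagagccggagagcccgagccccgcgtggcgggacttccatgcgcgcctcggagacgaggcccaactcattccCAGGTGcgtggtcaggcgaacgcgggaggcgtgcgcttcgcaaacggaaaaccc
Fam111a: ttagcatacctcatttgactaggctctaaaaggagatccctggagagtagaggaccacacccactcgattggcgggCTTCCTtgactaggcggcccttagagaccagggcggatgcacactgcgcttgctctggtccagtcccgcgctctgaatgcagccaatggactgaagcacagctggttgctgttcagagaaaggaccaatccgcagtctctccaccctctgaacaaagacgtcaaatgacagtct
Casp12: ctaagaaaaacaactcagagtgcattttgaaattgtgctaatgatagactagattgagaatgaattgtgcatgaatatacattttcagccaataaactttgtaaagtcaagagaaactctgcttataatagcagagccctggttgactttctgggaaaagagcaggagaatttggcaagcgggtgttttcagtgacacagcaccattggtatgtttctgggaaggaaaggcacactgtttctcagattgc
RefSeq gave 14 starts for 9 of the 10 genes. CAGGTG stood in 2 of the 14 windows, with 2 matches before Rab25 and 1 before Rasef, while 17.2% of the 32851 starts of all genes have a match and 2.06% have 2 or more. AGGAAG stood in 6 windows of 5 genes, against 29.5% of all starts, and CGGAAG in 3 windows of 3 genes (Rab25, Bspry, Rasef), against 13.6%. At least 1 of these ETS forms stood in 8 windows of 7 genes, and in 39.2% of all starts. The windows ranged widely in CpG content, with 1 CpG before Casp12, 34 before Rasef and a median of 8.5, against a median of 6 over all starts. These matches are letters in a window and not sites shown to be bound.

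Clone 1 stood at 0 to 4.24% of control in 3D (median 1.82%) and at 0 to 4.19% in 2D (median 0.442%), with Rps6ka6 the highest in both formats. In the same libraries clone 2 stood between 50.2% (Fam111a) and 188.5% (Acsl6) of control in 3D and between 40.3% (Casp12) and 215.7% (Rasef) in 2D. For each of the 10 genes, in both formats, the clone 1 libraries lay below all clone 2 and control libraries. This is what the choice asked for. At an adjusted p under 0.05 by edgeR's quasi-likelihood test, 45.1% of all tested genes were called between clone 1 and control in 3D (23.0% lower in clone 1) and 39.8% in 2D (20.0% lower). Between clone 1 and clone 2 it was 54.9% in 3D and 41.6% in 2D. Counting intervals and lower limits given below cover counting error only, and both clones are set against the same control libraries.

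**Figure D1:**
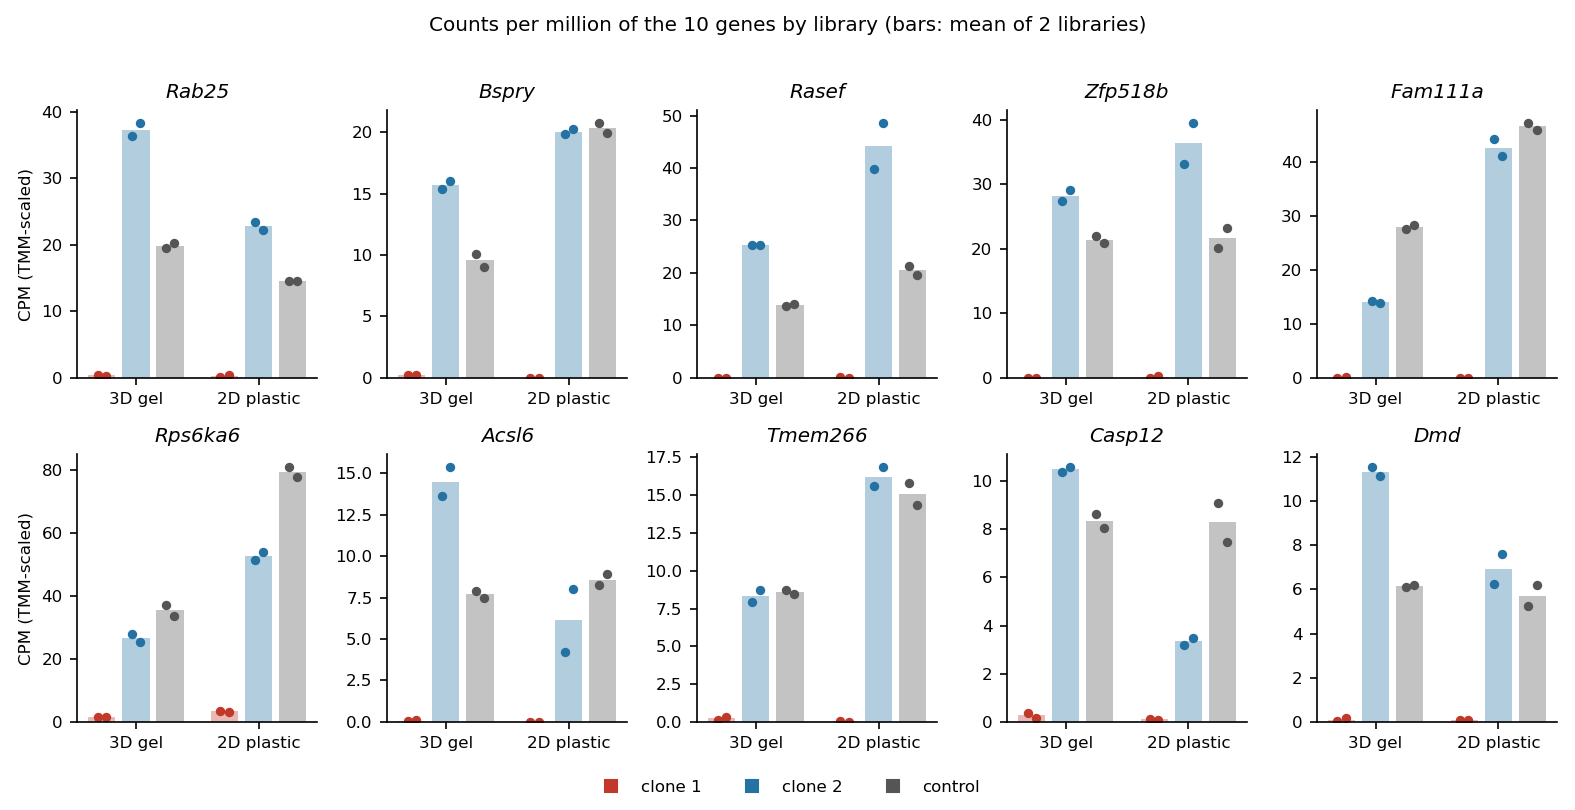
CPM (TMM-scaled, vertical axes) of the 10 genes in every library, with 3D gels left of 2D plastic. Points are libraries and bars the mean of 2. Clone 1 sits at or near 0 in all panels, and only Rps6ka6 stands visibly above 0, with 1.44 and 1.55 CPM in 3D and 3.05 and 3.56 CPM in 2D.

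The 3 trafficking and epithelial genes were kept and mostly higher in clone 2. In 3D, Rab25 was at 0.322 and 0.456 CPM in clone 1, 36.3 and 38.3 CPM in clone 2 and 19.5 and 20.2 CPM in control. Its 2D libraries held 0.0699 and 0.482 CPM in clone 1, 22.2 and 23.4 CPM in clone 2 and 14.5 CPM in both control libraries. The order was therefore clone 2, control, clone 1 in both formats, with no overlap between any groups. With 22 counts in clone 1 against 1099 in control in 3D, Rab25 was 51.8-fold lower there, with a counting interval of 34.0 to 83.0.

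Bspry had no count in clone 1 in 2D, and was at 19.9 and 20.3 CPM in clone 2 and 20.0 and 20.8 CPM in control, so clone 2 and control overlapped and clone 1 was at least 181.5-fold lower than control (floor of 3 counts over the group). In 3D, Bspry was at 0.193 and 0.228 CPM in clone 1, 15.4 and 16.0 CPM in clone 2 and 9.06 and 10.1 CPM in control. In gels, then, clone 2 lay above control without overlap. Rasef had no count in clone 1 in 3D, and was at 25.3 and 25.4 CPM in clone 2 and 13.6 and 14.1 CPM in control, which makes clone 1 at least 265.1-fold lower than control. On plastic Rasef stood at 0 and 0.140 CPM in clone 1, 39.8 and 48.6 CPM in clone 2 and 19.6 and 21.3 CPM in control. Those clone 2 values, at 215.7% of control, were the highest relative level of any of the 10 genes.

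Fam111a and Rps6ka6 were the members with the most control counts, and both were lower in clone 2 than in control. In 3D, Fam111a was at 0.0380 and 0.0644 CPM in clone 1, 13.8 and 14.3 CPM in clone 2 and 27.6 and 28.4 CPM in control. In 2D it had no count in clone 1, and was at 41.1 and 44.2 CPM in clone 2 and 45.9 and 47.2 CPM in control. Clone 1 was at least 337.1-fold lower than control in 2D (lower 95% counting limit). Clone 2 lay below control without overlap in both formats, by far more in gels (50.2% of control) than on plastic (91.6%). Rps6ka6 was the member with the most counts in clone 1, 38 and 48 in 3D and 38 and 51 in 2D. Its 3D levels were 1.44 and 1.55 CPM in clone 1, 25.3 and 27.9 CPM in clone 2 and 33.6 and 37.2 CPM in control. Its 2D levels were 3.05 and 3.56 CPM in clone 1, 51.4 and 54.0 CPM in clone 2 and 77.8 and 80.9 CPM in control. No groups overlapped, and clone 1 was 23.6-fold lower than control in 3D (counting interval 19.0 to 29.6) and 23.9-fold lower in 2D (19.3 to 29.8).

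Zfp518b had no count in clone 1 in 3D, and was at 27.4 and 29.1 CPM in clone 2 and 20.9 and 21.9 CPM in control. Its 2D levels were 0 and 0.241 CPM in clone 1, 33.1 and 39.5 CPM in clone 2 and 20.1 and 23.2 CPM in control. The 3 counts in clone 1 in 2D were all in 1 library, and clone 2 lay above control in both formats without overlap. Tmem266 was the member whose clone 2 level was nearest to control in both formats together. It was at 0.152 and 0.354 CPM in clone 1, 7.94 and 8.76 CPM in clone 2 and 8.45 and 8.72 CPM in control in 3D. On plastic Tmem266 stood at 0 and 0.0699 CPM in clone 1, 15.6 and 16.9 CPM in clone 2 and 14.4 and 15.8 CPM in control. Clone 2 and control overlapped in both formats for this gene.

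Acsl6, Casp12 and Dmd were the members with the fewest control counts in 2D. In 3D, Acsl6 was at 0.0380 and 0.129 CPM in clone 1, 13.6 and 15.4 CPM in clone 2 and 7.49 and 7.88 CPM in control. In 2D it had no count in clone 1, and was at 4.23 and 8.04 CPM in clone 2 and 8.25 and 8.90 CPM in control. Clone 2 thus lay above control in gels and below it on plastic, where its own libraries differed widely. Casp12 changed sides in the same way: it was at 0.161 and 0.380 CPM in clone 1, 10.4 and 10.6 CPM in clone 2 and 8.06 and 8.64 CPM in control in 3D. Its 2D libraries held 0.0804 and 0.140 CPM in clone 1, 3.20 and 3.49 CPM in clone 2 and 7.49 and 9.09 CPM in control. At 40.3% of control, that 2D level made Casp12 the member least kept in clone 2. Dmd was at 0.0380 and 0.161 CPM in clone 1, 11.1 and 11.5 CPM in clone 2 and 6.09 and 6.20 CPM in control in 3D. Dmd on plastic stood at 0.0699 and 0.0804 CPM in clone 1, 6.24 and 7.61 CPM in clone 2 and 5.24 and 6.21 CPM in control. All clone 2 libraries lay above all control libraries for Dmd, by a narrow margin on plastic.

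Per kilobase of exon, the control level in 3D was highest for Rab25 (11.9 CPM per kb) and lowest for Dmd (0.258 CPM per kb), whose exons span 23801 bases. In 2D, Rps6ka6 led the control levels with 15.8 CPM per kb and Dmd was again the lowest with 0.241 CPM per kb. Bspry and Rab25 were level in control in 2D at 8.66 CPM per kb each, whereas in 3D Bspry was at 4.07 CPM per kb and Rab25 at 11.9 CPM per kb.

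**Figure D2:**
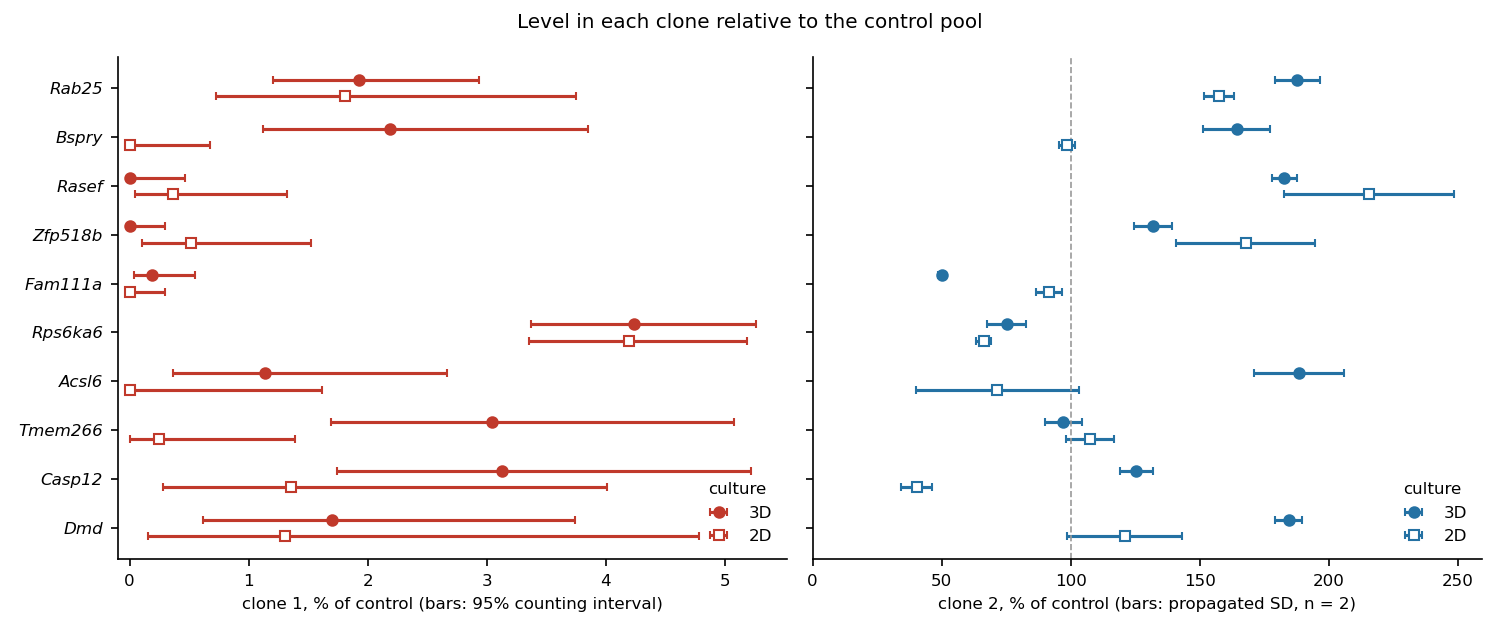
Level of the 10 genes in clone 1 (left, bars are 95% counting intervals) and in clone 2 (right, bars are the propagated SD of 2 libraries), in percent of control, with filled circles for 3D and open squares for 2D. Clone 1 does not pass 4.24% for any gene, while clone 2 spans 40.3 to 215.7%.

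Counted over libraries, both clone 2 libraries lay above both control libraries for 7 of the 10 genes in 3D, where 36.31% of all tested genes did so, and for 4 in 2D, where 32.12% did. Both lay below for 2 genes in 3D (36.11% of all tested genes) and for 4 in 2D (25.47%). By edgeR's test 29.2% of all tested genes were called between clone 2 and control in 3D (11.9% higher and 17.4% lower in clone 2) and 33.9% in 2D (18.9% higher and 15.0% lower), and no such call is given for the 10 genes, since being kept in clone 2 was part of the choice. The number of calls in 3D depended on single libraries: 4023 genes were called with all libraries, 2436 without clone 2 replicate 1, 2461 without clone 2 replicate 2, 2590 without control replicate 1 and 2429 without control replicate 2 of that format.

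The difference between culture formats within clone 2 or within control was not itself used in choosing the genes and could be tested where they were expressed. The choice did ask for genes kept in clone 2 in both formats, which limits how far they could differ between formats. How far this shaped the calls below was not tested. In clone 2, 4 of the 10 genes rose in 3D relative to 2D and 6 fell, and in control 1 rose, 5 fell and 4 did not pass the test. Over all tested genes 79.5% were called in clone 2 (42.5% higher and 37.0% lower in 3D) and 77.2% in control (41.7% higher and 35.6% lower). The median log2 change of the 10 genes was -0.35 in clone 2 and -0.36 in control, against 0.11 and 0.10 over all tested genes. Culture format, collagenase digestion and count table changed together and cannot be told apart.

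In clone 2, edgeR's quasi-likelihood test with Benjamini-Hochberg adjustment gave the largest rises for Casp12 (log2 change 1.65 ± 0.19 SE, adjusted p = 1.2e-08) and Acsl6 (1.28 ± 0.20, adjusted p = 1.8e-06). Dmd rose by 0.72 ± 0.17 (adjusted p = 0.00039) and Rab25 by 0.71 ± 0.11 (adjusted p = 1.6e-06) on the same scale. Fam111a fell by 1.60 ± 0.10 (adjusted p = 4.3e-14), Rps6ka6 fell by 0.98 ± 0.09, Tmem266 fell by 0.95 ± 0.15 and Rasef fell by 0.80 ± 0.11, the last 3 with an adjusted p of at most 1.4e-06 by edgeR. Zfp518b fell by 0.36 ± 0.11 (adjusted p = 0.0058) and Bspry by 0.35 ± 0.12 (adjusted p = 0.0097) by the same test. These 2 calls depended on single libraries: without clone 2 3D replicate 1 the adjusted p was 0.073 for Zfp518b and 0.08 for Bspry, and without clone 2 2D replicate 2 it was 0.1 for Zfp518b. DESeq2's Wald test gave 0.092 for Bspry. Over all alternatives tried the adjusted p ran from 0.0016 to 0.1 for Zfp518b and from 0.0053 to 0.092 for Bspry.

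In control, the log2 change of Rps6ka6 was -1.17 ± 0.08 (adjusted p = 7.4e-13, edgeR), Bspry fell by 1.09 ± 0.13 (adjusted p = 2.1e-08) and Fam111a fell by 0.73 ± 0.09 (adjusted p = 6.5e-08). Tmem266 fell by 0.81 ± 0.15 and Rasef by 0.56 ± 0.12, with adjusted p of 2.1e-05 and 0.00026 by edgeR. Rab25 was the only one of the 10 to rise in control, by 0.45 ± 0.12 (adjusted p = 0.0016, edgeR). Casp12 (0.01 ± 0.17), Zfp518b (-0.02 ± 0.12), Dmd (0.10 ± 0.19) and Acsl6 (-0.16 ± 0.20) did not pass the test, with adjusted p between 0.47 and 0.95 by edgeR.

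The format difference itself was larger or smaller in clone 2 than in control for 4 of the 10 genes, where 22.2% of all tested genes were called (7.43% higher and 14.8% lower in clone 2). It equals clone 2 against control in 3D minus clone 2 against control in 2D, and the choice of genes drew on both. Its adjusted p for the 10 genes are therefore a description, and how far the choice shaped them was not tested. Casp12 was higher by 1.64 ± 0.26 on the log2 scale (adjusted p = 5.4e-05, edgeR), Acsl6 by 1.44 ± 0.28 (adjusted p = 0.00059) and Bspry by 0.74 ± 0.17 (adjusted p = 0.0032). For Fam111a the difference was -0.87 ± 0.13 (adjusted p = 3.8e-05, edgeR). In clone 2, Casp12 and Acsl6 were thus at 3.15 and 2.42 times their 2D level in 3D, against 1.01 and 0.895 times in control. The remaining 6 genes did not pass, with Dmd nearest at 0.62 ± 0.25 (adjusted p = 0.081, edgeR). Dmd passed without clone 2 2D replicate 2 (0.76, adjusted p = 0.047), in a range of 0.047 to 0.23 over the alternatives. Over all genes, 3059 were called, 1884 without clone 2 3D replicate 1 and 1968 without control 3D replicate 2.

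**Figure D3:**
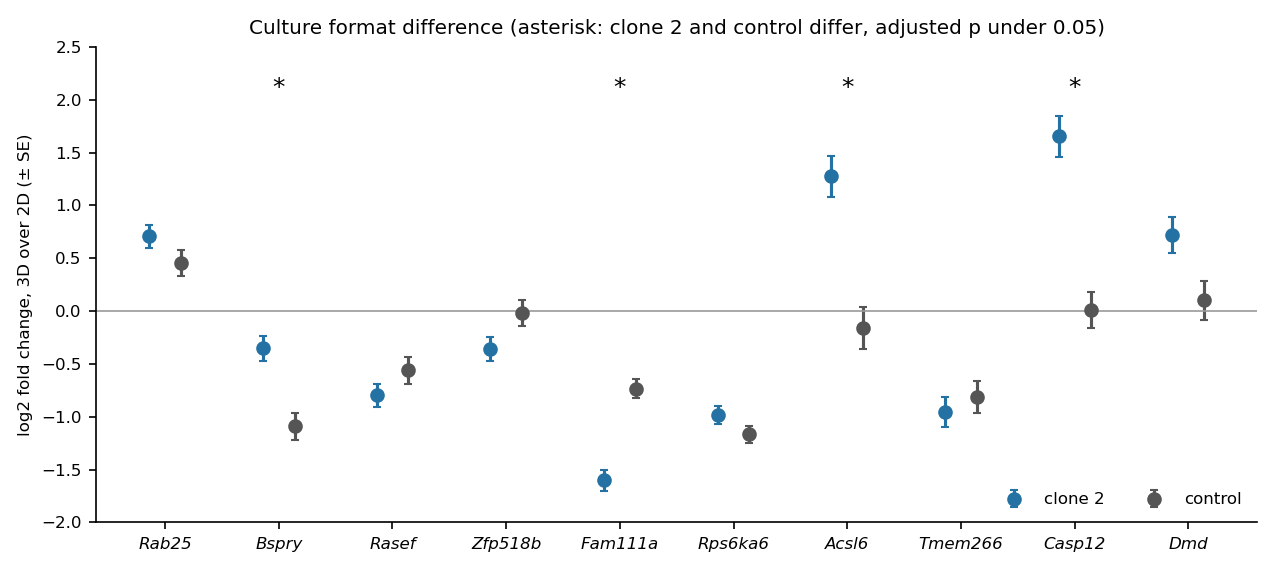
Log2 change of 3D over 2D (vertical axis, bars are SE) for the 10 genes in clone 2 and in control. Asterisks mark the 4 genes called for a different change in clone 2 and control (adjusted p under 0.05, edgeR). Casp12 is among them, with 1.65 in clone 2 and 0.01 in control. These calls are a description, as the choice of genes drew on clone 2 against control in both formats.

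Among the genes beside the 10 on the chromosome, more were called lower than higher in clone 1 against control in both formats. For each gene, up to 3 tested genes on each side whose lowest coordinate lay within 1 Mb of its own were taken, 39 in all, and distances below are between these coordinates. None was found for Dmd, which is itself longer than this window, so that no gene beyond its far end could be taken. Of these 39, 3 were higher and 15 lower in clone 1 than in control in 3D, with 21 not called, and 5 were higher and 11 lower in 2D, with 23 not called. Over all tested genes 22.0% were higher and 23.0% lower in 3D, and 19.8% and 20.0% in 2D. The median log2 change of the neighbours was -0.15 in 3D and -0.17 in 2D, against 0.00 over all tested genes in both. Chromosomes as wholes differed from control in clone 1: the median was -0.43 in 3D and -0.38 in 2D on chromosome 11, and -0.13 and -0.14 on chromosome 9. With each chromosome's median taken out, 9 neighbours were lower and 5 higher in 3D, and 7 were lower in 2D. In 2D the number higher was 3 without control 2D replicate 1 and 2 with 2D libraries alone.

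Mex3a, 9.63 kb from Rab25 by lowest coordinate, was at 64.2% of control in clone 1 in 3D (log2 change -0.64 ± 0.07, adjusted p = 1.8e-08, edgeR) and at 77.9% in 2D (-0.36 ± 0.09, adjusted p = 0.0016). On the other side of Rab25, Lamtor2, a lysosomal scaffold subunit, was at 74.0% in 3D (adjusted p = 0.0018, edgeR) and 88.4% in 2D (adjusted p = 0.32). The gene left of Bspry, Wdr31, was at 18.6% of control in 3D (-2.41 ± 0.46, adjusted p = 0.00012, edgeR) and 31.9% in 2D (adjusted p = 0.08), the lowest nearest neighbour outside the Casp12 cluster in 3D. Its counts were low, with 0.332 ± 0.014 CPM in clone 1 and 1.79 ± 0.67 CPM in control in 3D (SD, n = 2). In clone 2 Wdr31 was at 2.02 ± 0.02 CPM in 3D, and at 1.52 ± 0.23 CPM in 2D against 0.833 ± 0.701 CPM in control. Clone 1 was lower than clone 2 in both formats (adjusted p = 2.6e-05 in 3D and 0.0024 in 2D, edgeR). Hdhd3, right of Bspry, was at 62.8% in 3D (adjusted p = 0.04, edgeR, and above 0.05 in 10 of the alternatives) and 75.4% in 2D (adjusted p = 0.36).

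The other nearest neighbours of the genes lay on both sides of the control level. Beside Fam111a, Dtx4 was at 98.9% of control in clone 1 in 3D and 136.5% in 2D, and the zinc finger gene Zfp91 at 116.9% and 101.6%. Wdr1 and Hs3st1, 141.7 and 945.5 kb from Zfp518b, were at 111.8% and 97.1% in 3D and at 128.5% and 96.4% in 2D, and with chromosome medians taken out the 3D log2 change of Wdr1 was -0.07 in place of 0.16. Kdm4c, a histone demethylase gene 527.9 kb from Rasef, was at 100.7% in 3D and 120.5% in 2D, and Apool, 923.1 kb from Rps6ka6, at 97.9% and 116.7%. Etfa beside Tmem266 was at 76.2% in 3D and 66.0% in 2D, and Nrg4 on its other side at 79.5% in 3D and 11.3% in 2D, where control itself had only 0.310 CPM. Beside Acsl6, Fnip1 was at 83.4% in 3D and 90.8% in 2D, and its log2 change turned positive, to 0.17 and 0.24, with chromosome medians taken out. Csf2, the other gene beside Acsl6, was at 1.78 CPM in clone 1 and 2.40 CPM in control in 3D, and at 0.0804 CPM in clone 1 and 0.0337 CPM in control in 2D.

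The 2 genes nearest to Casp12 were low too. Casp4 and Casp1, inflammatory caspases 36.6 and 46.9 kb from Casp12, had 1 and 0 counts in the 4 clone 1 libraries together. In 3D, Casp1 had no count in clone 1, 29 and 14 counts in clone 2 and 71 and 66 counts in control. Clone 1 was at least 38.0-fold lower than control by the lower 95% counting limit (adjusted p = 6.2e-08, edgeR). In 2D, Casp1 had no count in clone 1, 3 and 0 counts in clone 2 and 20 and 14 counts in control. By the same limit it was at least 8.01-fold lower in clone 1 than in control (adjusted p = 0.00022, edgeR). Casp1 was low in clone 2 as well, at 30.8% of control in 3D (adjusted p = 0.0028, edgeR) and 6.95% in 2D (adjusted p = 0.0014). The 3D call was lost without clone 2 3D replicate 2 (adjusted p = 0.12) or control 3D replicate 1 (adjusted p = 0.058). Clone 1 was lower than clone 2 for Casp1 in 3D (adjusted p = 2.2e-05, edgeR), and in 2D, with 0 against 3 counts, the adjusted p was 0.23.

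Casp4 had 0 and 1 counts in clone 1, 14 and 23 in clone 2 and 43 and 29 in control in 3D, a ratio of control to clone 1 of 74.7 with a counting interval of 13.0 to 2989 (adjusted p = 9.8e-06, edgeR). In 2D it had no count in clone 1, 0 and 4 in clone 2 and 2 and 4 in control, and the difference from control did not pass (adjusted p = 0.089, edgeR). The third neighbour of Casp12, Msantd4, lies 968.9 kb away and was at 78.6% of control in 3D and 92.5% in 2D. Otop1, 392.5 kb from Zfp518b, was the only other neighbour at or below 10% of control, and it was low in both clones. Otop1 was at 0.483 and 0.494 CPM in clone 1, 0.438 and 0.595 CPM in clone 2 and 10.4 and 10.7 CPM in control in 3D. Its 2D levels were 0.0804 and 0.140 CPM in clone 1, 0 and 0.108 CPM in clone 2 and 3.10 and 4.33 CPM in control, so neither clone overlapped control.

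**Figure D4:**
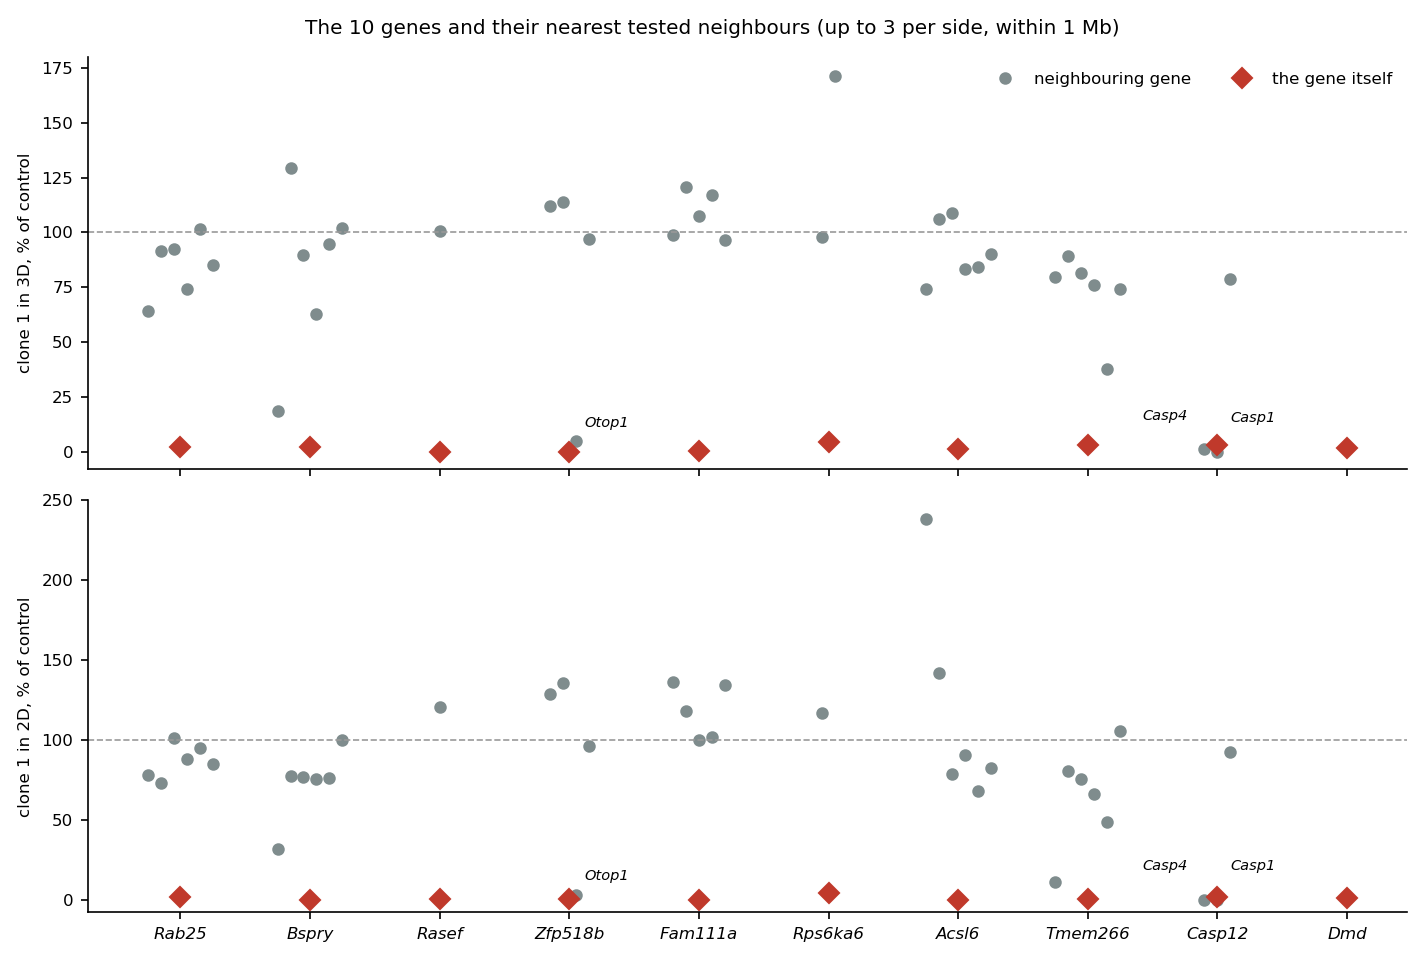
Level in clone 1 in percent of control (vertical axes, 3D above 2D) for the 10 genes (diamonds) and their tested neighbours (circles, spread sideways for legibility and not to scale along the chromosome). Casp4, Casp1 and Otop1 are the 3 neighbours at or below 10% in both formats, and the dashed line is the control level.

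Lists of relatives of the 10 genes were described by their counts of calls in clone 1 against control, by edgeR's test. Over all tested genes 22.0% were higher and 23.0% lower in 3D, and 19.8% higher and 20.0% lower in 2D. Of 7 tested Rab11 genes and effectors, 2 were higher and 2 lower in 3D (median log2 change 0.07), and 3 higher and 1 lower in 2D (median 0.03). With chromosome medians taken out, 1 was higher in each format. The number lower was 1 in 3D without clone 1 3D replicate 2 or control 3D replicate 1, and 2 in 2D without control 2D replicate 2. The effector Rab11fip4 stood out with 5.18 ± 0.46 CPM in clone 1, 12.9 ± 0.2 CPM in clone 2 and 11.5 ± 0.7 CPM in control in 3D (-1.15 ± 0.16 against control, adjusted p = 2.1e-06, edgeR), and -1.58 ± 0.22 in 2D (adjusted p = 1.9e-06). Rab11b, the broadly expressed paralog of Rab25, rose by 0.34 ± 0.06 in 3D and 0.41 ± 0.08 in 2D, Rab11fip5 rose by 0.26 ± 0.06 and 0.23 ± 0.06, and Rab11fip2 rose in 2D by 0.25 ± 0.09, a call lost in 6 alternatives. With chromosome medians taken out, Rab11b was at 0.08 in 3D (adjusted p = 0.37, edgeR) and 0.18 in 2D (adjusted p = 0.12), and neither call held. The 2D call of Rab11fip5 was lost without clone 1 2D replicate 2 (0.18) or control 2D replicate 2 (0.15). Rab11fip5 rose in clone 2 as well, by 0.395 in 3D and 0.274 in 2D. Clone 1 against clone 2 passed in neither format for this gene (adjusted p = 0.057 and 0.65, edgeR).

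Of the 5 RSK and MSK kinases, 2 were higher in clone 1 in 3D and 3 not called, and 2 were higher and 1 lower in 2D. Rps6ka2, another RSK, was at 36.8 ± 0.6 CPM in clone 1, 22.3 ± 0.9 CPM in clone 2 and 21.2 ± 2.3 CPM in control in 3D (0.79 ± 0.09 against control, adjusted p = 4.3e-08, edgeR), and rose by 0.65 ± 0.10 in 2D. Rps6ka4, an MSK kinase 19.83% of whose exon length overlaps other genes, rose by 0.71 ± 0.05 in 3D and 0.56 ± 0.05 in 2D. Rps6ka1 was at -0.07 in 3D and -0.18 in 2D, where its call (adjusted p = 0.039, edgeR) was lost in 13 alternatives, and Rps6ka3 did not pass in either format (0.09 and 0.12).

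Of the 5 acyl-CoA synthetases other than Acsl6, 2 rose and 2 fell in each format, and with chromosome medians taken out 1 rose in 2D and 1 fell in 3D. Acsl1 rose by 0.47 ± 0.08 in 3D and 0.58 ± 0.09 in 2D, and Acsl5 by 0.43 ± 0.05 and 0.17 ± 0.05, the last value losing its call without clone 1 2D replicate 1 (0.15), without control 2D replicate 2 (0.13) or with chromosome medians taken out (0.05). Acsl4, which prefers arachidonate, was at 234.4 ± 6.9 CPM in clone 1, 546.2 ± 2.0 CPM in clone 2 and 421.9 ± 12.1 CPM in control in 3D (-0.85 ± 0.06 against control, adjusted p = 3.2e-12, edgeR), and fell by 0.42 ± 0.06 in 2D. Acsbg1 was at -0.16 ± 0.07 in 3D (adjusted p = 0.051, edgeR) and fell by 0.55 ± 0.08 in 2D. In clone 2 Acsbg1 fell too, by 0.50 in 3D and 0.51 in 2D. The other gene lower in 3D, Acsl3, fell by 0.20 ± 0.06 (adjusted p = 0.0054, edgeR), and was not called without clone 1 3D replicate 2.

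Of 8 tested caspases, 6 were lower in clone 1 in 3D and 2 not called, where 23.0% of all tested genes were lower. In 2D, 4 were lower and 4 not called, where 20.0% of all tested genes were lower. Median log2 changes were -0.51 in 3D and -0.50 in 2D, against 0.00 over all tested genes in both. Casp1 and Casp4, the neighbours of Casp12 described above, are among the 6 lower in 3D, and Casp1 is among the 4 lower in 2D. Casp8, an initiator caspase, fell by 0.48 ± 0.07 in 3D and 0.41 ± 0.07 in 2D, with an adjusted p of at most 6.4e-05 by edgeR. In clone 2 Casp8 fell by 0.39 ± 0.07 in 3D too (adjusted p = 5.3e-05, edgeR), and was not called in 2D (adjusted p = 0.13). Between the clones Casp8 was not called in 3D (adjusted p = 0.28, edgeR) and was lower in clone 1 in 2D (adjusted p = 0.0044). Clone 2 had 2 caspases lower than control in 3D and 6 not called, and 2 higher and 1 lower in 2D. The number lower in 3D was 1 without clone 2 3D replicate 2 or control 3D replicate 1, and the number higher in 2D was 1 without clone 2 2D replicate 2 or control 2D replicate 1. In the direct comparison 5 of the 8 were lower in clone 1 than in clone 2 in each format, where 26.4% of all tested genes in 3D and 23.2% in 2D were lower. In 2D it was 3 without clone 1 2D replicate 2.

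Partners of dystrophin moved in both directions in clone 1 in 3D. Of 7 tested genes, 2 were higher and 2 lower in 3D, and 3 were higher and 4 not called in 2D, with median log2 changes of 0.15 and 0.19. Utrn, the autosomal relative of Dmd, was at 157.6 ± 2.0 CPM in clone 1, 179.7 ± 0.5 CPM in clone 2 and 134.7 ± 3.0 CPM in control in 3D (0.23 ± 0.07 against control, adjusted p = 0.0089, edgeR), a call lost without clone 1 3D replicate 1 or control 3D replicate 2 (0.20 in each case). Dag1, dystroglycan, rose by 0.21 ± 0.05 in 3D and 0.19 ± 0.05 in 2D. The number higher in 3D was 1 without clone 1 3D replicate 1 or without control 3D replicate 2, and 4 with 3D libraries alone. Dtna, a dystrobrevin, showed the reverse of the 10 genes: it had 143 counts in clone 1, 1 in clone 2 and 90 in control in 3D, summed over 2 libraries each, and clone 2 was lower than control (adjusted p = 2.1e-07, edgeR) while clone 1 was not called (0.61 ± 0.31, adjusted p = 0.11). Zfp518a, the paralog of Zfp518b, fell in clone 1 by 0.75 ± 0.17 in 3D (adjusted p = 0.00059, edgeR) and by 0.82 ± 0.23 in 2D (adjusted p = 0.0047), and DESeq2's Wald test made neither call. The 2D call was also lost without clone 1 2D replicate 2 (-0.32) or control 2D replicate 2 (-0.57).

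Rab25, Bspry and Rasef are expressed in epithelia, and other epithelial genes were counted beside them. Of 29 tested, 6 were higher and 12 lower in clone 1 than in control in 3D, and 7 higher and 10 lower in 2D, with medians of -0.10 and 0.03. The shares over all tested genes were 22.0% higher and 23.0% lower in 3D, and 19.8% and 20.0% in 2D. In clone 2, set against the same control libraries, 12 were higher and 6 lower in 3D, where 11.9% of all tested genes were higher and 17.4% lower. In 2D, 14 were higher and 5 lower in clone 2, where 18.9% of all tested genes were higher and 15.0% lower (medians of the epithelial genes 0.14 in both formats). Between the clones, 14 were lower and 7 higher in clone 1 than in clone 2 in 3D, where 26.4% of all tested genes were lower and 28.5% higher. In 2D, 14 were lower and 5 higher, where 23.2% of all tested genes were lower and 18.4% higher. The tight junction claudin Cldn7 was at 2.80 and 3.23 CPM in clone 1, 108.8 and 111.2 CPM in clone 2 and 100.9 and 109.9 CPM in control in 3D. Cldn7 on plastic stood at 0.804 and 0.839 CPM in clone 1, 40.0 and 42.2 CPM in clone 2 and 57.3 and 61.7 CPM in control. Its change in clone 1, -5.13 ± 0.10 in 3D and -6.17 ± 0.16 in 2D (adjusted p of at most 1.6e-20, edgeR), left it at 2.86% of control in 3D and 1.38% in 2D, inside the range of the 10 genes.

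Ap1m2, the clathrin adaptor subunit of epithelial basolateral sorting, was at 2.55 and 3.30 CPM in clone 1, 44.5 and 47.1 CPM in clone 2 and 25.4 and 27.5 CPM in control in 3D (-3.19 ± 0.16 against control, adjusted p = 8.4e-15, edgeR), and fell by 4.07 ± 0.19 in 2D. Mal2, an apical transport protein, fell by 0.81 ± 0.08 in 3D and 1.85 ± 0.10 in 2D. Keratin Krt19 moved up instead, by 0.39 ± 0.06 in 3D and 0.82 ± 0.07 in 2D. In clone 2 Krt19 rose by 0.65 in 2D too, and was at -0.17 in 3D. Tjp3, a junction scaffold named here after its values were seen, had 3 and 9 counts in clone 1, 34 and 50 in clone 2 and 62 and 65 in control in 3D, 11.0-fold lower in clone 1 with a counting interval of 6.07 to 21.8. E-cadherin, Cdh1, did not follow: it was at -0.16 ± 0.06 in 3D (adjusted p = 0.032, edgeR) and 0.24 ± 0.06 in 2D (adjusted p = 0.0038), calls lost in 8 alternatives in 3D and in 2D without control 2D replicate 1 (0.11). The count of epithelial genes higher in clone 1 in 3D was 3 without clone 1 3D replicate 1 or without control 3D replicate 2. Clone 2's counts moved too: 7 were higher in 3D without clone 2 3D replicate 2, and 3 lower without either clone 2 3D library or without control 3D replicate 2, and in 2D 3 were lower without either clone 2 2D library. Between the clones in 2D, 2 were higher in clone 1 without clone 1 2D replicate 1 and 3 without clone 2 2D replicate 1.

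**Figure D5:**
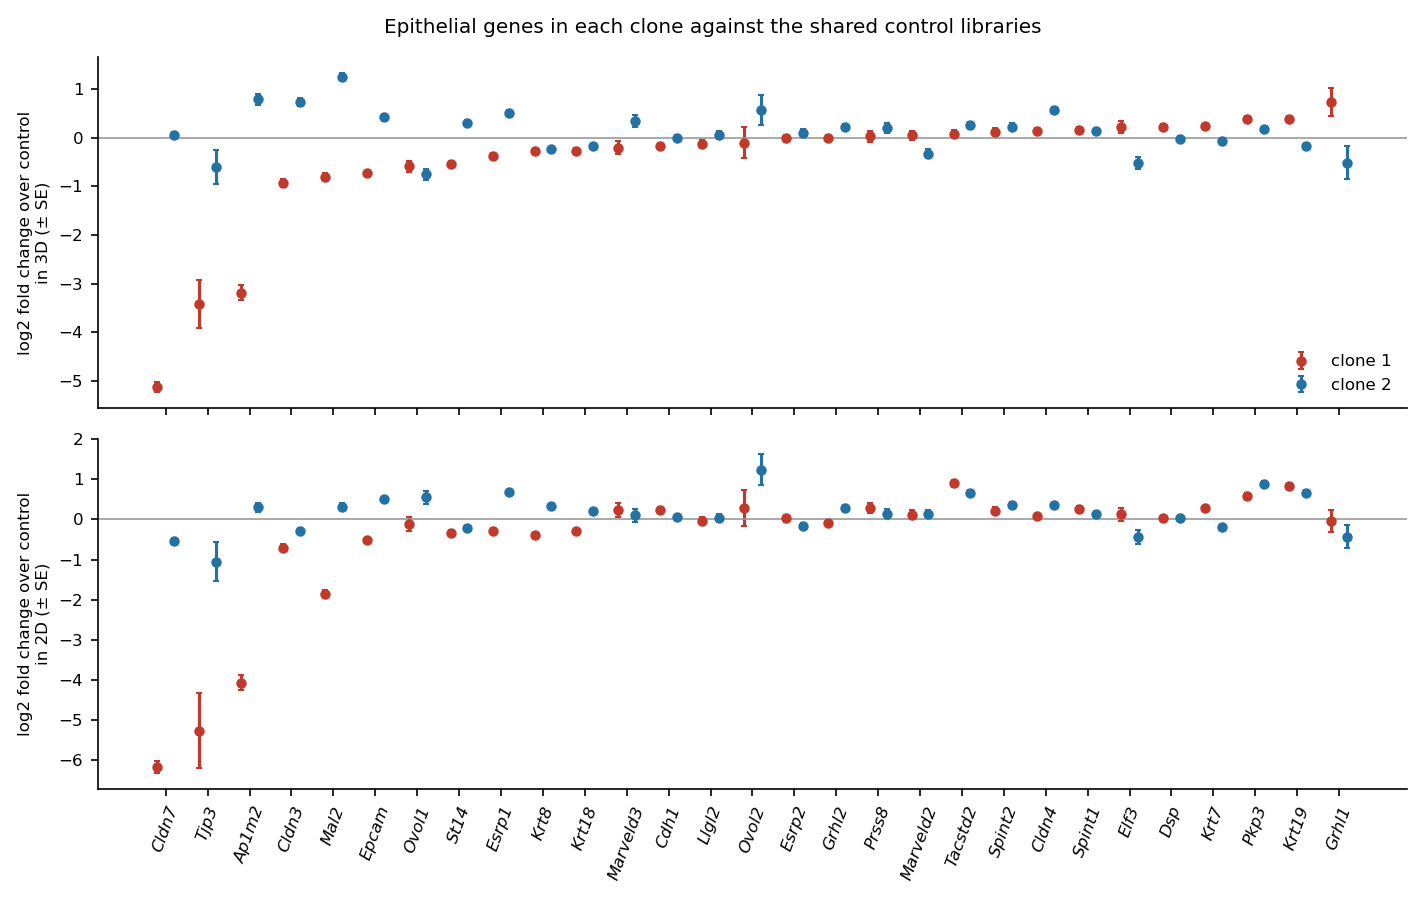
Log2 change over control (vertical axes, bars are SE) of 29 epithelial genes in clone 1 and clone 2, in 3D (upper panel) and 2D (lower panel), ordered by clone 1 in 3D. Cldn7, Tjp3 and Ap1m2 stand apart from the rest in clone 1, at -5.13, -3.43 and -3.19 in 3D.

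Mesenchymal genes and their regulators did not move one way in clone 1. Of 6 tested, 2 were lower and 4 not called in 3D, and 2 higher and 1 lower in 2D. Vim, vimentin, was at 2212 ± 49 CPM in clone 1, 1323 ± 28 CPM in clone 2 and 2303 ± 24 CPM in control in 3D (-0.06 ± 0.05 against control, adjusted p = 0.35, edgeR), and rose by 0.28 ± 0.05 in 2D. Fn1, fibronectin, fell by 0.66 ± 0.06 in 3D and rose by 0.45 ± 0.06 in 2D. In clone 2 Fn1 fell by 0.49 in 3D too, and was not called in 2D (0.10). Zeb1, a repressor that binds the CAGGTG E-box, had 1 count in clone 1, 53 in clone 2 and 48 in control in 3D (adjusted p = 0.00013, edgeR), and 6 in clone 1 and 15 in control in 2D (adjusted p = 0.34). Its relative Zeb2 was at 0.07 ± 0.08 in 3D and -0.31 ± 0.10 in 2D, where the call was lost without control 2D replicate 2 (-0.12).

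Few other genes had the pattern of the 10. Of the 13763 tested genes, 18 (0.131%) had at least 2 CPM in control, at most 10% of control in clone 1 and at least 50% in clone 2 in both formats. Of the 10, 9 were among these 18; Casp12 was just outside, at 40.3% in clone 2 in 2D, and Fam111a just inside, at 50.2% in clone 2 in 3D. The 9 others were Cav1, Chn2, Cldn7, Epdr1, Gpc4, Lgals3bp, Nox4, Tubb2b and Zfp979, of which Chn2, Epdr1 and Gpc4 had no count in any clone 1 library. With the clones exchanged, 1 gene met the same limits, Pmp22, at 252.1% of control in clone 1 and 2.51% in clone 2 in 3D. Both counts depend on the limit of 2 CPM in control. It left out Dtna, low in clone 2, with 1.63 CPM in control in 3D and 1.30 CPM in 2D. It also left out Gstk1 and Akip1, low in clone 1, with 0.652 and 1.14 CPM in control in 3D. The genes whose log2 CPM over the 12 libraries was most like the mean of the 10 were Epdr1 (Pearson r = 0.997), Chn2 (0.993), Gstk1 (0.991), Tubb2b (0.989) and Akip1 (0.989), values that rest on the split between the 4 clone 1 libraries and the other 8. Epdr1, for example, was at 0 CPM in clone 1, 3.90 CPM in clone 2 and 3.11 CPM in control in 3D, and in 2D at 0 CPM in clone 1, 4.75 CPM in clone 2 and 4.51 CPM in control.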

How the data were processed

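The authors deposited whole-number read counts for each gene symbol, 1 table of 2D and 1 of 3D libraries, and the 12 count columns were all used. Per the submitters' processing notes, reads were handled on mm10 with STAR 2.7.9a, featureCounts and FastQC 0.11.9, and R 4.1.1 and Cell Ranger 3.0.0 are named as well. What each tool did, and whether counting used strand, is not given in the sources used here. Per the labels' protocols, libraries came from a stranded mRNA kit.

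Both tables were joined by symbol and all 12 libraries entered a single edgeR 4.0.16 fit (limma 3.58.1, R 4.3.3) after filterByExpr and TMM scaling. Each group had its own mean, which left 6 residual degrees of freedom, and the biological coefficient of variation was 4.51%. P-values are from the two-sided quasi-likelihood test, Benjamini-Hochberg adjusted over 13763 genes, with a threshold of 0.05. CPM are TMM-scaled. Folds from few counts use a floor of 3 counts over a group or 95% exact binomial intervals. Whether the 2 libraries of a group are independent cultures is not in the labels, and p-values then reflect the spread between these libraries, which may be technical; replicates differed beyond counting noise and none was a duplicate.

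The 10 genes, the lists of related genes and the tests were chosen with earlier results of these data known. Named were all 10 genes, the nearest tested gene on each side and neighbours that changed at least 1 log2 unit in both formats, and up to 4 genes per list with the smallest p in clone 1 against control in 2D. A gene named outside that rule was chosen after its values were seen. Some genes that the rule names are not reported here. GENCODE M21 (mm10) placed 13612 of the tested symbols, and upstream sequences are from RefSeq (GRCm38.p6).

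Alternatives were DESeq2 1.42.0 size factors and Wald test, no filter, a replicate block, 2 abundant predicted genes left out, chromosome medians taken out, libraries of 1 format alone, and each library left out.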

Additional observations from a re-analysis of the deposited data

Results flagged for a closer look

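Bspry, Fam111a, Acsl6 and Casp12 stand out because their difference between 3D and 2D was not the same in clone 2 as in control, by edgeR's test of that difference. In clone 2 minus control it was 0.74 for Bspry, -0.87 for Fam111a, 1.44 for Acsl6 and 1.64 for Casp12 on the log2 scale. These values are built from the levels of clone 2 against control that the choice of genes drew on, so their adjusted p are a description. Bspry fell less in clone 2 than in control, Fam111a fell more in clone 2, and Acsl6 and Casp12 rose in clone 2, against -0.16 and 0.01 in control, where neither passed the test. All 4 calls held in every alternative tried, with adjusted p of at most 0.036 for Bspry, 0.00095 for Fam111a, 0.008 for Acsl6 and 0.0013 for Casp12. The 2D libraries of clone 2 differed widely for Acsl6, with 4.23 and 8.04 CPM, and the part of that spread in its value was not tested beyond leaving out each library, which gave 1.01 to 1.93 over all alternatives.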

How the results depend on the processing

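The calls for the 10 genes kept their side of the threshold in 505 of 510 recomputed log2 changes, and no called change turned its direction. A turn in sign was not counted where neither fit passed the test. For 3D against 2D in control, Casp12 ran from -0.116 to 0.159, Zfp518b from -0.117 to 0.0981 and Dmd from -0.0131 to 0.235. The exceptions are 4 losses in clone 2 (Bspry with DESeq2's Wald test, and Bspry and Zfp518b without single libraries) and 1 gain for Dmd, given in the report. Levels relative to control moved beyond their bounds in 4 of 640 values. For clone 2 the bound was the propagated replicate SD, and for clone 1 it was the counting interval, which is wide at few counts. The clone 1 levels were therefore not set against the replicate spread. With libraries of 3D alone, 6440 genes were called between clone 2 and control in 3D, against 4023. With chromosome medians taken out, Fnip1 turned to 0.239 in 2D and 0.167 in 3D and Wdr1 to -0.0682 in 3D.

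Leaving out 1 library at a time gave 4510 to 6782 calls for clone 1 against control in 3D and 4650 to 5731 in 2D, 2429 to 4666 for clone 2 against control in 3D and 3741 to 4927 in 2D, and 6043 to 8094 between the clones in 3D and 4864 to 6178 in 2D. It gave 10101 to 11536 for 3D against 2D in clone 2, 9677 to 11075 in control, and 1884 to 3328 for their difference. Of the 10 genes 8 to 10, 6 and 4 to 5 were called in these last 3.

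Replicate numbers did not pair the libraries: correlations of the deviations ran from -0.0449 to 0.0223. With the replicate block, 10843 genes were called for 3D against 2D in clone 2, 10528 in control and 2893 for the difference, with 10, 6 and 4 of the 10 genes. Depth limits the near-absent genes, where a handful of counts in clone 1 sets the fold.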
